A study of Homo sapiens with 2 samples.

Results

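The genes described here carry the outer layer of Wnt signalling: 19 Wnt ligands, 10 Frizzled receptors, 10 secreted antagonists (SFRP1, SFRP2, SFRP4, SFRP5, FRZB, WIF1 and DKK1 to DKK4) and 2 genes that let Wnts leave the cell, PORCN and WLS. They were chosen by name, 41 of 19862 protein-coding gene records, and all 41 were found in the gene table. The choice was made with earlier results of these data known. For each gene, peak summits were counted within 1 kb of either end of its RefSeq record, inside the record, and within 50 kb of it. The peaks came from CAL-27 cells, an established line of human tongue squamous cell carcinoma, grown as spheres, a suspension culture in which tumour cells with stem-like traits are enriched. DNA bound by a TCF4 antibody was sequenced in 1 library, which has a list of 26642 peaks, and DNA from an IgG control antibody in 1 library, which was not analysed here. The cells of both libraries are the same line, and no other treatment, genotype or time is named. With 1 library per antibody there is no replicate check, no test is given, and peaks that would also arise with IgG were not separated from the rest. TCF4 is the symbol of an E-box-binding E protein and also an older name of TCF7L2, a partner of beta-catenin, and which of these the antibody recognises is not stated in the labels.

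Wnts are secreted lipid-modified proteins. PORCN attaches the lipid and WLS carries the ligand to the cell surface, where it binds a Frizzled together with an LRP co-receptor, or a ROR or RYK receptor. In the beta-catenin branch this stops the breakdown of beta-catenin, which then joins TCF/LEF factors on DNA, and several pathway genes, DKK1 among them, are known targets of that complex in other cells. SFRPs, FRZB and WIF1 bind Wnts outside the cell, and DKK proteins act mostly at the LRP co-receptors. In squamous carcinomas secreted antagonists are often silenced by promoter methylation, which was not measured here.

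The sequence under a peak in a member's own listed promoter could be read for 2 members, FZD1 and WNT16. RefSeq promoters of GRCh38.p14, the assembly that hg38 names, run from 250 bases before to 50 bases after a transcription start and were listed for 29 of the 41 genes, 34 promoters in all. The bases upstream of the start that lie under the peak are shown for FZD1 (chr7:91264231-91264432, plus strand) and for WNT16 (chr7:121328769-121328966, plus strand). The same is shown for EBP (chrX:48521558-48521807, plus strand), a sterol isomerase gene whose start lies under the peak counted at the end of PORCN. Capitals mark CCAAT or its reverse complement ATTGG, a box common in promoters.
FZD1: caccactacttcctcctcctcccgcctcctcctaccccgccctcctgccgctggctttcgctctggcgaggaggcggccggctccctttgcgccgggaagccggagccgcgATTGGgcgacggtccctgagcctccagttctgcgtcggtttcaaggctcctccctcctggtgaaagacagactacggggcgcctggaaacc
WNT16: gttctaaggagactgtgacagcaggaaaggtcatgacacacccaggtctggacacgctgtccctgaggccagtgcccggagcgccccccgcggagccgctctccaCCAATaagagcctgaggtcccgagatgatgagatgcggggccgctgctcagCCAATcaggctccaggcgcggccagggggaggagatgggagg
EBP: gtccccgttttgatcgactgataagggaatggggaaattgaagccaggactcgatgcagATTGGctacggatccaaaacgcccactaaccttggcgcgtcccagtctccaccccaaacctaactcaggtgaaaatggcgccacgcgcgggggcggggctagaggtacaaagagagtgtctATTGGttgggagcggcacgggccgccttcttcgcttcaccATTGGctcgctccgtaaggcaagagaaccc
The FZD1 stretch is 67.8% G and C with 18 CpG and 1 CCAAT box, and that of WNT16 is 65.2% with 11 CpG and 2 boxes. The EBP stretch is 57.6% with 18 CpG and 3 boxes. Neither FZD1 nor WNT16 held an E-box (CANNTG) or a TCF/LEF core (CTTTGAT or CTTTGTT) on either strand of these bases, and EBP held 1 E-box and no such core. This says only that the letters are not in these windows. The summit inside WNT4 also lay in a listed promoter, 152 bases before the start of the non-coding gene LOC105376845. The 300 bases of that promoter are 79.3% G and C with 42 CpG, 2 E-boxes and no TCF/LEF core. Over the same length the promoters of FZD1 and WNT16 held no E-box and that of EBP 1. The WNT4 stretch is not printed, since it lies within the WNT4 record.

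The member promoter with the most E-boxes and those with a TCF/LEF core held no summit, like all but 2 of the 34. Over all listed promoters, an E-box was in 57.5% of those with a summit and 71.1% of those without. CTTTGTT was in 2.59% and 5.76%. These sets also differ in base composition, with medians of 68% and 55.3% G and C. Whether composition bears on the motif shares was not tested. The listed promoter of WNT5A with 4 E-boxes, the most of any member, is shown over its 250 upstream bases (chr3:55487307-55487556, minus strand), where capitals mark 3 of them. The 37 bases around the upstream CTTTGTT of the DKK1 promoter are shown as well (chr10:52314190-52314226, plus strand), with the core in capitals, beginning 76 bases before the start.
WNT5A: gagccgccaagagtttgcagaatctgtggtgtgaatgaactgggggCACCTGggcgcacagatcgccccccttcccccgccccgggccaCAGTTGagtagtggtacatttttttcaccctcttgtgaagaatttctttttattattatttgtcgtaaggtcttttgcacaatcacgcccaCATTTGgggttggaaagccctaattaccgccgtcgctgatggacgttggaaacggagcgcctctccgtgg
DKK1: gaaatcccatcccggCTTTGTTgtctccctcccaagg
Neither gene had a summit within 50 kb. The nearest to DKK1 lay 330776 bp away, and the nearest to WNT5A 1563439 bp away, the farthest of any member.

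Few of the Wnt signal and receptor genes had a peak at an end. A summit lay within 1 kb of an end in 9 of the 41 genes (22%), against 41.5% of all protein-coding genes (8240 of 19862). These were the ligands WNT2 and WNT4, the receptors FZD1, FZD3 and FZD6, the antagonists SFRP4, FRZB and DKK4, and PORCN. A summit inside the record was found in 13 members (31.7%) against 39.0% of all, and within 50 kb in 32 members (78.0%) against 77.6%. With all peaks counted, the share of members with any summit thus lay below the background at gene ends and near it over the wider window. With stricter peaks it lay below within 50 kb too, at 36.6% against 59.1% for a −log10 q of at least 5. The number of summits within 50 kb was lower, with a median of 1 per member against 2 for all protein-coding genes. The means were 1.66 and 3.16. Of the other members, 16 had summits only in the flanks and 9 had none within 50 kb.

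**Figure D1:**
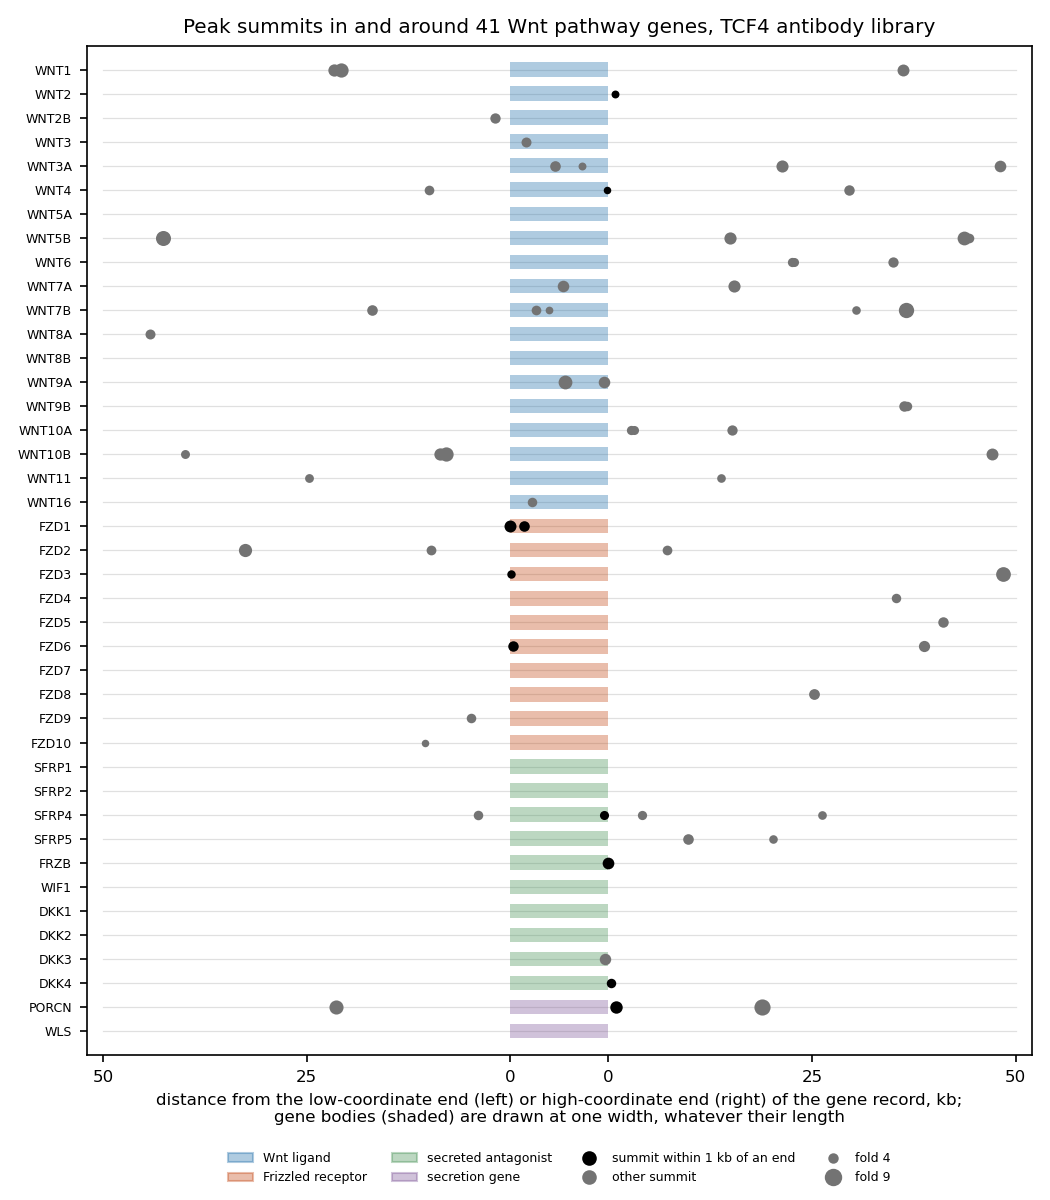
Each row is a gene, and each point a peak summit at its distance in kb from the low-coordinate or high-coordinate end of the gene record; point area grows with the authors' fold enrichment and shaded gene bodies are drawn at one width. Black points, within 1 kb of an end, are found in 9 genes, and 9 rows have no point.

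Counts by role were small, and differences between roles were not tested. The roles also differed in surroundings: the median number of other protein-coding gene ends within 100 kb was 4 for ligands, 2.5 for receptors and 1.5 for antagonists. Among ligands 2 of 19 (10.5%) had a summit at an end, while 7 had one inside and 17 one within 50 kb (89.5%). Among Frizzled genes the counts were 3, 3 and 9 of 10. Among antagonists they were 3, 3 and 5 of 10, so 5 antagonists had no summit within 50 kb, against 2 ligands and 1 receptor. Of the secretion genes, PORCN had a summit at an end and WLS had none within 50 kb. The median record was 29277 bp for ligands, 25312 bp for antagonists and 5740 bp for receptors. A summit lay inside 36.8%, 30% and 30% of them. The receptors with one were FZD1 (6894 bp) and those with the longest records, FZD3 (80047 bp) and FZD6 (34373 bp). Their inside summits all lay within 1 kb of an end, so they are also counted there. Over total length, members held 1.23 summits inside per 100 kb of gene record and all protein-coding genes 1.09.

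**Figure D2:**
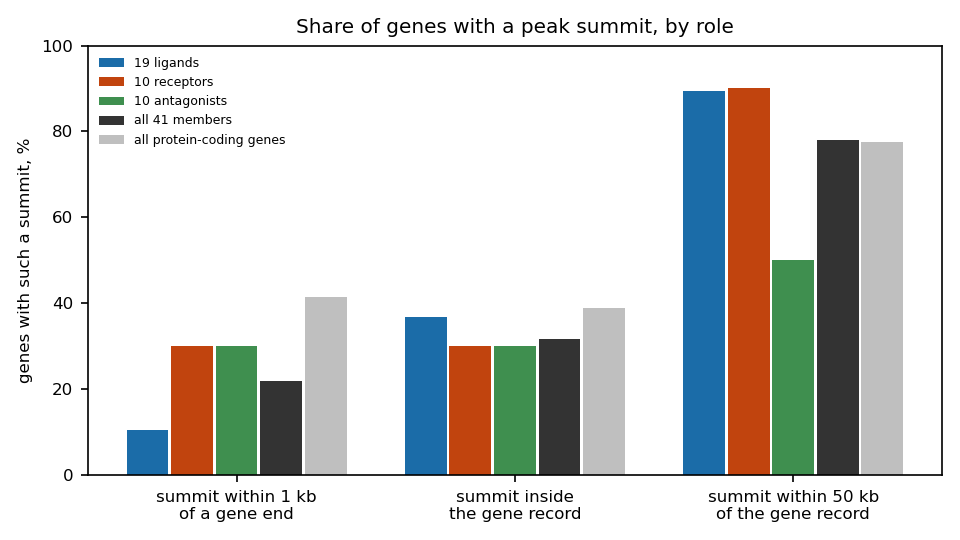
Bars give the percentage of genes with a summit at an end, inside the record, or within 50 kb of it, for ligands, receptors, antagonists, all 41 members and all 19862 protein-coding genes; the 2 secretion genes have no bars of their own. At gene ends every member bar lies below the grey bar of 41.5%; within 50 kb the antagonists stand at 50% and the ligands at 89.5%.

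The strongest peak at an end had a lower median fold for members than for all protein-coding genes with such a peak. Beside the whole list the peaks at member ends were not low. The 10 of them had a median fold of 5.08 on 9 fragments, against 5.13 on 10 for all peaks. Fold enrichment is the authors' value, the fragments at the summit over the caller's local background, each plus 1. The number of fragments was solved from the deposited fold and p of each peak, and its exact 95% Poisson interval covers counting error only. The strongest peak per member at an end had a median fold of 4.75 over 9 genes, with quartiles of 4.07 and 6.28. Over all 8240 protein-coding genes with such a peak the median was 6.39, with quartiles of 5.03 and 8.45. The highest member value, 6.81 at PORCN, exceeded that of 56.5% of those genes. With a −log10 q of at least 5, 3 members kept a summit at an end (7.32%, against 27.4% of all genes), FZD1, FRZB and PORCN. At 10 or more there were none, against 14.2% of all.

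The other ways of counting gave the members the same place against the background at gene ends. Within 500 bp of an end 6 members had a summit against 36.6% of all, and within 2000 bp 12 (29.3%) against 45.7%, with WNT9A, DKK3 and WNT2B added. With at least 10 fragments, 4 members kept a summit at an end (FZD1, SFRP4, FRZB and PORCN) against 29.5%. Inside the record it was 8 against 23.1%, and within 50 kb 22 (53.7%) against 58.2%. Inside the record, 4 members passed a −log10 q of 5 against 20% of all, and 1, WNT9A, passed 10 against 8.22%. Within 50 kb these counts were 15 (36.6%) against 59.1% and 7 (17.1%) against 37.3%. Without the tenth of peaks with the highest background, the members' counts at an end, inside and within 50 kb stayed at 9, 13 and 32, against 37.6%, 36.2% and 77% of all. Counting any overlap of the peak left them at the same numbers, against 42.2%, 48.5% and 77.7%. Within 20 kb 25 members (61%) had a summit against 68.8%, and within 100 kb 34 (82.9%) against 85.1%. Counting a summit only for the nearest protein-coding record left 23 members (56.1%) against 56.6%. Just outside 50 kb lay summits of FZD5 at 51101 bp (fold 7.65 on 16 fragments) and SFRP5 at 51981 bp (7.4 on 21), and just inside lay those of FZD3 at 48394 bp (8.55 on 13) and WNT3A at 48081 bp (6.25 on 14).

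Among the receptors, FZD1 had the clearest peak at its own start. FZD1 is a seven-pass receptor of the beta-catenin branch, encoded without introns. Its main summit lay 31 bases before the transcription start, with a fold of 6.5 on 12 fragments (interval 6.20 to 21.0). A weaker summit lay inside the gene, 974 bases from the start, with a fold of 5.5 on 10 fragments, just inside the window of 1 kb. FZD1 was the only member with 2 summits at an end.

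FZD3 and FZD6, receptors best known for planar polarity and axon guidance, each had a summit just inside the end at the lower coordinate. For FZD3 (chr8:28494212-28574258) it lay 87 bp from the end, with a fold of 4.07 on 5 fragments (1.62 to 11.7), the fewest of any peak at a member's end. For FZD6 (chr8:103298494-103332866) it lay 789 bp from the end and had 7 fragments (2.81 to 14.4) at a fold of 5.42, and lay 465 bp from the end of the non-coding record LOC105369147. The strand of these genes is not in the tables used here, so start and finish were not told apart. The intervals of FZD1, FZD3 and FZD6 overlap, so their order by fragments is not resolved at this depth. Both chromosome 8 peaks had the lowest background in the list, 0.475 fragments, which 9.29% of all peaks share.

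The other 7 Frizzled genes had no summit inside or at an end. FZD2 had 3 in its flanks, at 7153, 9801 and 32549 bp, the farthest with a fold of 7.39 on 11 fragments. FZD9 had a summit at 4824 bp (fold 4.80, 10 fragments) and FZD8 at 25293 bp (5.65, 10 fragments). FZD10 had a summit at 10521 bp with a fold of 3.5 on 5 fragments, 350 bp from the end of its antisense neighbour FZD10-AS1. FZD4, the receptor that also binds Norrin, had its nearest at 35305 bp (4.75, 6 fragments) and FZD5 at 41121 bp (5.43, 8 fragments). FZD7 had its nearest at 74499 bp, outside the window. FZD3 and FZD6 had further summits in their flanks: at 48394 bp from FZD3, inside EXTL3, with a fold of 8.55 on 13 fragments, and at 38756 bp from FZD6, 84 bp from the end of CTHRC1, with a fold of 5.94 on 8.

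Among the ligands, the peaks at WNT2 and WNT4 were low in the list. WNT2, a ligand of lung and placental development, had a summit 775 bases upstream of its start, with a fold of 3.74 on 6 fragments (2.2 to 13.1). WNT4, which acts in kidney and ovary development, had a summit 399 bases downstream of its start, with a fold of 3.49 on 8 fragments (3.45 to 15.8). Only 7.63% and 3.48% of all peaks had a lower fold. Their −log10 q values, 1.71 and 1.67, lie close to the lowest in the list, 1.3, a q of 0.05. WNT4 also had flanking summits at 9968 bp (4.88, 7 fragments) and 29484 bp (5.42, 10 fragments).

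WNT16, a ligand of bone and keratinocytes, was not counted at an end, because its record begins before its listed start. Its summit lay 183 bases upstream of that start and 3450 bp from the low-coordinate end of the record, and its fold was 4.78 on 8 fragments (3.45 to 15.8). Counting only listed starts, 6 of 29 members (20.7%) had a summit within 1 kb, WNT2, WNT4, WNT16, FZD1, SFRP4 and FRZB, against 44.5% of 15842 protein-coding genes with a listed promoter.

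The strongest peaks within ligand genes lay in WNT9A, which held 2. The summit at 12957 bases from its start had a fold of 7.84 on 18 fragments (10.7 to 28.4). The other, 1412 bases from the start and so just outside the end window, had 6.20 on 20 fragments (12.2 to 30.9), and lay 662 bp from the end of the non-coding record LOC124904533. WNT7A, an epithelial ligand, held a summit 29661 bases from its start with a fold of 6.19 on 11 fragments. WNT3A, the ligand most used to switch on beta-catenin in culture, held 2, with folds of 5.54 on 9 fragments and 3.75 on 8. WNT7B held 2, with folds of 4.88 on 14 and 3.61 on 10. WNT3 held 1, with a fold of 5.09 on 12 fragments, in a stretch that the record of LRRC37A2, a gene of a multi-copy family, also spans. Where near-identical copies share reads, counts there are uncertain.

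Several ligands lie side by side as old duplicates. WNT1 and WNT10B on chromosome 12 had no summit inside or at an end, and their nearest summits lay at another gene. A peak with a fold of 8.2 on 21 fragments (13 to 32.1) lay 7862 bp from WNT10B and 20844 bp from WNT1. Its summit was 9 bp from the end of ARF3, a GTPase of Golgi traffic, and a further summit 805 bp from that end had 6.72 on 17. On the other side a peak 63 bp from PRKAG1, a subunit of the energy sensor AMPK, had 6.46 on 17. WNT3A on chromosome 1, beside WNT9A, had its nearest summits inside the gene, as given above, and further ones at other genes. A peak 21362 bp away with a fold of 6.60 on 18 fragments (10.7 to 28.4) lay 75 bp from the end of ARF1, the relative of ARF3, and another lay 53 bp from MRPL55 (6.25 on 14). WNT9B on chromosome 17, beside WNT3, had its nearest summits 36280 and 36669 bp away, 142 and 247 bp from the end of GOSR2, another Golgi traffic gene, with folds of 5.42 and 4.75 on 7 and 6 fragments.

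WNT6 and WNT10A, which overlap at their ends on chromosome 2, shared 3 summits. They lay 2841, 3143 and 15229 bp from WNT10A, each within 1 kb of a non-coding record. The nearest 2 had folds of 4.60 and 4.47 on 18 and 17 fragments and backgrounds of 3.13 and 3.02 fragments, above the level of 2.96 that 90% of peaks stay under. In all, the 41 genes had 62 distinct summits within 50 kb, of which 6 were counted for 2 members each.

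The remaining ligands had summits at a distance or none. WNT7B had 3 outside the gene besides those inside. The strongest, at 36488 bp, had a fold of 9.0 on 28 fragments (18.6 to 40.5), the most fragments of all 62, and lay 69 bp from the non-coding record LOC124905134. WNT5B, a ligand of the beta-catenin-independent branch, had 4, from 14895 to 44256 bp away, with folds of 4.84 to 8.77; 2 of them lay at the end of ADIPOR2. WNT2B had a summit 1888 bases before its start (5.34 on 9). WNT11 had summits at 13795 bp (4.21 on 7) and 24697 bp (4.32 on 14). WNT8A had 1 at 44240 bp (5.1 on 8), which lay 12 bp from the end of the non-coding record LOC124901077. It also lay 48 bases before a listed start of FAM13B. WNT8B had its nearest at 89559 bp.

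Among the antagonists, FRZB had the peak of highest fold. FRZB is a decoy with a Frizzled-like domain that captures Wnts. Its summit lay 214 bases downstream of its start, with a fold of 6.28 on 10 fragments (4.80 to 18.4). SFRP4 had a summit 462 bases downstream of its start, with a fold of 4.49 on 12 fragments (6.20 to 21.0). A further 3 lay within 50 kb of SFRP4, from 3994 to 26288 bp away, and 1 of these lay 371 bp from the end of EPDR1. The summit of DKK4 lay 319 bp outside its high-coordinate end, and its fold was 4.75 on 6 fragments (2.2 to 13.1), and nearer, at 239 bp, to the end of VDAC3, a mitochondrial channel gene. DKK3, a divergent DKK relative, had a summit inside, 1623 bp from its high-coordinate end, whose fold was 6.11 on 12 fragments. SFRP5 had 2 summits upstream, at 9807 bp (5.52 on 10) and 20256 bp (4.17 on 7).

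The other antagonists had no summit within 50 kb. The nearest lay 119140 bp from WIF1, 268620 bp from SFRP1, 651060 bp from SFRP2 and 684065 bp from DKK2, besides the 330776 bp of DKK1. SFRP2, DKK2 and WNT5A had no summit within 500 kb of the centre of the gene, as for 4.42% of protein-coding genes, and SFRP1 and DKK1 had 1, so that 5 members had at most 1, as for 8.51% of such genes. WNT8B, FZD7 and WLS differed from these, with 15, 11 and 9. The 9 members without a summit within 50 kb had a median of 1 summit within 500 kb (range 0 to 15), against 11.5 for the other 32 (3 to 54).

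**Figure D3:**
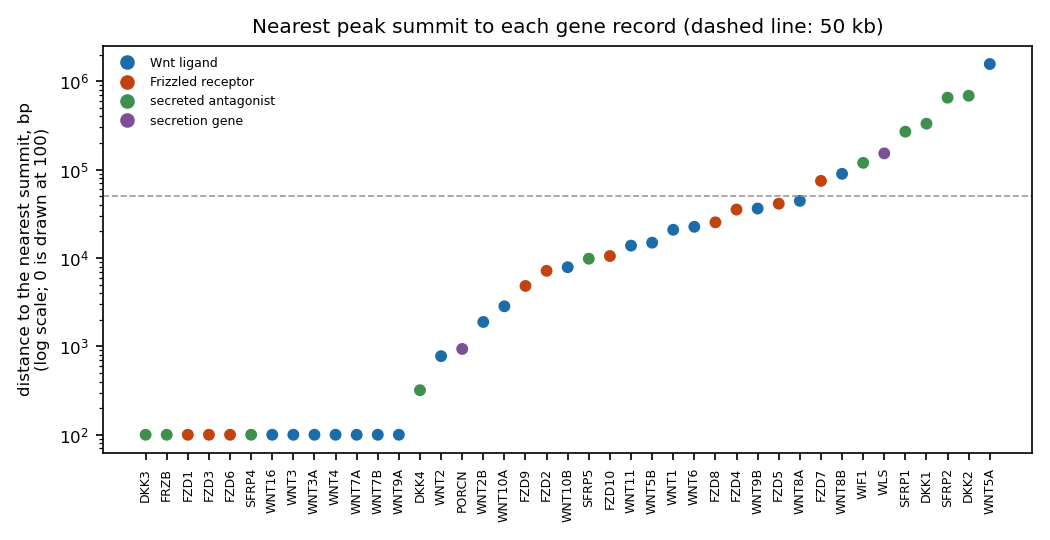
Points give the distance in bp, on a log scale, from each gene record to the nearest peak summit, with genes in order of distance and coloured by role; 13 genes with a summit inside are drawn at 100. The 9 genes above the dashed line at 50 kb run from FZD7 at 74499 bp to WNT5A at 1563439 bp.

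Of the secretion genes, WLS, the carrier of all lipid-bound Wnts, had its nearest summit at 152522 bp. PORCN lies among other genes on chromosome X. The summit 935 bp beyond its finish had a fold of 6.81 on 13 fragments (6.92 to 22.2) and lay 59 bp from EBP. A peak 18921 bp away, with a fold of 9.69 on 19 fragments (11.4 to 29.7), the highest fold of all 62, lay 21 bp from the end of TBC1D25, and another at 21453 bp had 8.07 on 22. None of the 3 was within 1 kb of the start of PORCN.

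Counting a summit only for the gene record with the nearest end left 6 members, WNT2, WNT4, FZD1, FZD3, SFRP4 and FRZB (14.6%, against 33.7% of all protein-coding genes). PORCN, DKK4 and FZD6 were lost to EBP, VDAC3 and LOC105369147. WNT4 was kept because ends of records were compared. By listed starts its summit lay nearer to LOC105376845, at 152 bases, than to WNT4, at 399. Of the 10 summits at member ends, 6 lay at the start of the gene, 1 at the finish, and 3 at genes without strand here. The 12 summits at the end of another protein-coding gene had a median fold of 6.36 on a median of 13.5 fragments. The 10 at member ends had 5.08 on 9, and the 22 more than 1 kb from the end of every gene record 5.15 on 9.5. Of these 22, the summit 39887 bp from WNT10B lay 39 bases past a listed start of FKBP11. All 62 had a median fold of 5.38 on 10 fragments, against 5.13 on 10 in the whole list.

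**Figure D4:**
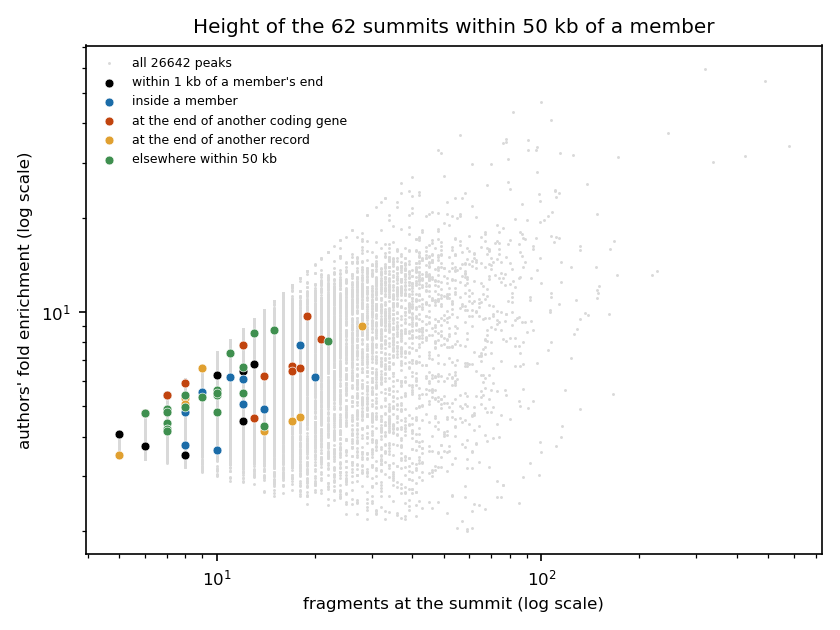
Points give the fragments at the summit and the authors' fold enrichment, both on log scales, for the 62 summits within 50 kb of a member, coloured by position, over all 26642 peaks in grey. Summits at member ends (black) reach 13 fragments and a fold of 6.81, and no summit near a member exceeds 28 fragments or a fold of 9.69.

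The median base composition of member promoters lay near that of promoters that carried peaks. Whether composition bears on the counts was not tested. The 34 member promoters had a median of 66.7% G and C and 28 CpG. The 6207 listed promoters with a summit had 68.0% and 29, and the 28908 without one 55.3% and 9. A summit lay in 2 of the 34 (5.88%), against 17.7% of all 35115. Among promoters with at least 60% G and C, 2 of 26 member promoters held one, against 32.2% of 16446. Below 60% none did: 0 of 7 from 50% to 60%, against 10.7%, and 0 of 1 under 50%, against 0.568%. At 70% or more it was 0 of 15, among them WNT3A (86.0%), WNT4 (85.7%), WNT9A (83.0%) and FZD4 (79.7%), against 35.7% of 7119. The bins of G and C were chosen after the values were seen. An E-box was present in 22 of the 34 member promoters (64.7%) and in 68.7% of all; the E-box CACCTG in 20.6% of either set, and CAGCTG in 14.7% against 17.9%. CTTTGAT was in none against 2.62%, CTTTGTT in 2 (DKK1 and WNT3, 5.88%) against 5.20%, and the AP-1 site TGANTCA in none against 7.71%. CCAAT, added after the sequences above were read, was in 16 (47.1%) against 34.6%. All listed promoters include those of non-coding genes, and their median G and C was 58.7%, below that of members. In the listed promoters with a summit, an E-box was in 57.5%, CTTTGAT in 1.01%, CTTTGTT in 2.59%, TGANTCA in 5.03% and CCAAT in 40.7%. CACCTG and CAGCTG are also counted under CANNTG, and every motif was searched on both strands.

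**Figure D5:**
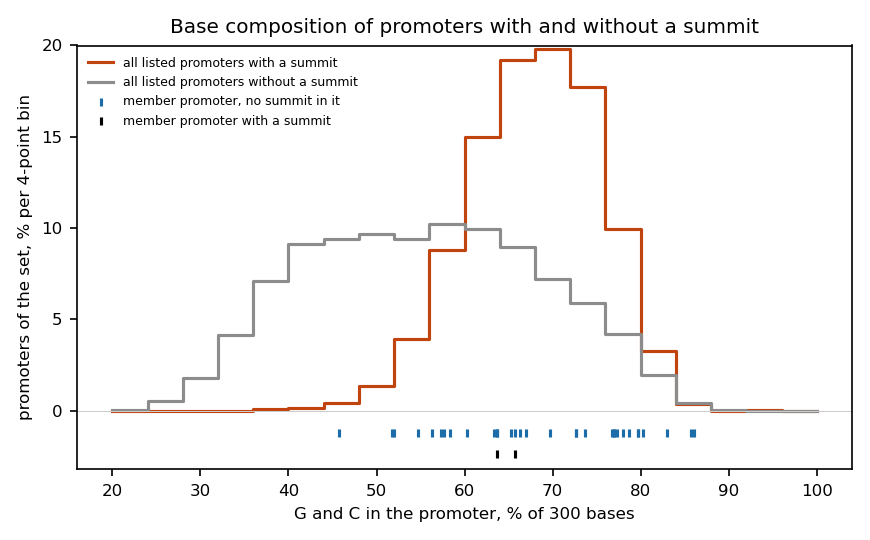
Lines give the distribution of G and C content, in bins of 4 percentage points, for listed promoters of 300 bases with and without a summit in them; ticks under the axis mark the 34 member promoters. Most member ticks lie under the curve of promoters with a summit, and only the 2 of FZD1 and WNT16 hold one.

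The neighbourhoods of the members held fewer genes. The members had a median of 3 ends of other protein-coding genes within 100 kb, against 6 for all such genes. Among genes with 0 to 4 such ends, 6 of 27 members had a summit at an end, against 35.0% of 7433 genes. With 5 to 10 it was 2 of 9 against 42.5%, and with 11 or more 1 of 5 against 48.8%. The share of all genes rose with the number of neighbouring ends. That of members was 22.2%, 22.2% and 20% over the same bins, on counts too small to show whether it rose. The median distance to the nearest summit was 7862 bp for members and 190 bp for all. Chromosomes 7 and 8 held 6 of the 9 members with a summit at an end, 3 of 5 and 3 of 4 of their members, whereas 3 of 32 members elsewhere had one. Of all protein-coding genes on chromosomes 7 and 8, 38.7% had a summit at an end, and of those elsewhere 41.7%. This split was chosen after the values were seen.

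Other genes of the pathway were counted in the same way. Each count at an end below stands beside the 41.5% of all protein-coding genes with a summit there. Of 12 co-receptor and receptor turnover genes, 7 had a summit at an end, led by the ubiquitin ligase RNF43 (fold 10.7), with ZNRF3 and KREMEN1 each at 9.27. Of 14 genes acting inside the cell 8 had one, led by AXIN1 (13.9) and CSNK1A1 (11.5), and of the 4 R-spondins and NOTUM 2 of 5 had one, near that share, RSPO4 (5.25) and NOTUM (3.09). The genes named have the highest folds at an end in their lists. Others lay lower, such as LGR4 (4.11) and TCF7L2 (4.46). The median of the strongest peak at an end was 7.03 for co-receptor and turnover genes, 6.56 inside the cell and 4.17 for R-spondins and NOTUM. For members it was 4.75, and for all protein-coding genes with such a peak 6.39. Of cell type marker genes, 7 of 8 squamous epithelial ones had a summit at an end, all but TP63. It was 1 of 4 lymphocyte, 1 of 4 fibroblast and 0 of 4 hepatocyte marker genes. Within 50 kb it was 8 of 8, 4 of 4, 2 of 4 and 0 of 4, against 77.6% of all protein-coding genes. Lists this short do not settle the cell type. A peak is not a measure of expression.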

How the data were processed

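The authors deposited a peak list for the TCF4 antibody library. The submitters' processing notes name Bowtie2 2.3.5.1, SAMtools, MACS2 2.2.7.1 and the build hg38, with no settings or control. The deposited fold is a ratio of fragments to local background, the authors' −log10 columns hold the p-value and the q-value of each summit, and the score column, as deposited, is that q column multiplied by 10 and cut to whole numbers. Fragments were solved from fold and p for all 26642 peaks within 0.001 of the −log10 p (500 of 500 simulated peaks were recovered). The total depth is unknown. Genes were 58957 RefSeq records on the main chromosomes of GRCh38.p14; records on other scaffolds were left out. Members and lists were chosen with earlier results of these data known. Members with a summit at an end or inside, or else their nearest summit, are given with values, and other genes where a described summit lies at their end. Alternatives were stricter peaks, other windows, overlap and assignment. Software was Matplotlib 3.10.9, pandas 2.3.3, SciPy 1.17.1, NumPy 2.4.6 and Python 3.11.15.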

Additional observations from a re-analysis of the deposited data

How the results depend on the processing

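The count of members with a summit at an end stayed at 9 with any overlap of the peak and without the 10% of peaks with the highest background. It was 6 within 500 bp of an end, 12 within 2000 bp, and 6 both by listed starts and by nearest end. Stricter peaks lowered it: 3 at a −log10 q of at least 5, 0 at 10, and 4 with at least 10 fragments. At these settings the count of members with a summit inside went from 13 to 4, 1 and 8. The count within 50 kb went from 32 to 15, 7 and 22. The number of distinct summits went from 62 to 23, 7 and 35, and was 39 within 20 kb, 112 within 100 kb and 34 when each summit counted only for the nearest protein-coding record. The median fold at an end, 4.75, became 4.62 within 500 bp and 5.38 within 2000 bp. The share of members stayed below that of all protein-coding genes at gene ends in each of these settings, while within 50 kb it was 36.6% against 59.1% at a −log10 q of at least 5, 17.1% against 37.3% at 10, and 53.7% against 58.2% with at least 10 fragments. No paired analysis was possible because each antibody has 1 library and no test compares them. The 10 peaks at member ends rest on 5 to 13 fragments, so single heights are imprecise.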
